A study of Homo sapiens with 2 samples.

Results

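First-intron peaks beyond promoters were NUDT21 CUT&Tag peaks that lay inside the first intron of a protein-coding gene and away from every annotated promoter and exon. A peak counted when its nearest edge was more than 3 kb from any GENCODE 44 transcript start and the peak touched no exon. Its summit, the point of highest signal, had to fall in intron 1 of the Ensembl canonical transcript, the 1 transcript that the annotation picks to represent a gene. It also had to touch a peak of the other replicate by at least 1 bp. Of the 92722 peaks of replicate 1 on chromosomes 1 to 22, X and Y, 5634 met the position rule and 2833 of these were shared. Of the 66671 peaks of replicate 2, 3811 met the position rule and 3037 were shared. Merged, they formed 2639 regions that held a shared peak of each replicate, in the first introns of 1133 genes.

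The data came from J.gamma1, an established derivative of the Jurkat line of T-cell acute lymphoblastic leukemia (T-ALL) that lacks phospholipase C gamma 1. Both samples were replicates of 1 group, untreated as far as the labels say, profiled with an antibody against NUDT21, and no control library was analysed here. In CUT&Tag an antibody tethers a transposase, and DNA that it cuts and tags near the bound protein is sequenced. The line is 1 clone. The methods of the study call the replicates independent and biological, and the labels do not say how they were grown. With 1 group of 2 samples no test between groups could be made, and differences were read against the values of both replicates.

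NUDT21, also called CFIm25, is the RNA-binding subunit of cleavage factor Im, which recognises UGUA in nascent transcripts and helps to choose the polyadenylation site. The first intron lies directly downstream of the promoter and is on average the longest intron of a gene. In many genes it holds enhancers and other regulatory DNA, and RNA polymerase II crosses it early in transcription. Polyadenylation signals within introns can also be used, which gives shortened transcripts.

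The following windows show the DNA under 6 of the 10 strongest regions by fold rank in both replicates, and under the strongest region of VAV1 and of PLCG1, which act in T-cell receptor signalling. Each window is 200 bp of hg38 centred on the replicate 1 summit, written 5′ to 3′ on the strand of the host gene. Capitals mark TGTA, the DNA form of the NUDT21 RNA motif. The first 3 come from regions in which many 20-base words occur more than once, and the next 3 from regions in which few or none do.
PTPRN2, chr7:158523951-158524150, minus strand: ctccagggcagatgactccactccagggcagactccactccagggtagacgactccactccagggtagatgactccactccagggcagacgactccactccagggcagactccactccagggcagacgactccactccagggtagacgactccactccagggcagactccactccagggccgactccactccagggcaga
TAF4, chr20:62058423-62058622, minus strand: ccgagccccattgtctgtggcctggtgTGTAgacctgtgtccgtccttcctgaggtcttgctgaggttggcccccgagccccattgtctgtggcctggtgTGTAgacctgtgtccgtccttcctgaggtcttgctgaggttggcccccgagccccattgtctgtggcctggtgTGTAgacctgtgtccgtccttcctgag
BRSK2, chr11:1432597-1432796, plus strand: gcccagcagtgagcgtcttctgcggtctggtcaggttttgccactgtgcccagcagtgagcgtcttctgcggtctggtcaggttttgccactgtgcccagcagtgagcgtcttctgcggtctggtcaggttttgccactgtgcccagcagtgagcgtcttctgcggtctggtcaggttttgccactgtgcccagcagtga
EPS15L1, chr19:16458489-16458688, minus strand: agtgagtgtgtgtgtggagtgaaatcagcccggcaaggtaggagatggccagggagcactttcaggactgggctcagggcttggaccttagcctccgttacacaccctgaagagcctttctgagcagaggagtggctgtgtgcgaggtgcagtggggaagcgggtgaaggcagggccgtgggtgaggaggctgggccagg
PRRC2B, chr9:131410211-131410410, plus strand: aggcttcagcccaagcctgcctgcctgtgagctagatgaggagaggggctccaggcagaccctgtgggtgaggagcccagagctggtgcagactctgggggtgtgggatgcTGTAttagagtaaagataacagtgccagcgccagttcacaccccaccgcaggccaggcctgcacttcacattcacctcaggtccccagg
ZBED4, chr22:49880293-49880492, plus strand: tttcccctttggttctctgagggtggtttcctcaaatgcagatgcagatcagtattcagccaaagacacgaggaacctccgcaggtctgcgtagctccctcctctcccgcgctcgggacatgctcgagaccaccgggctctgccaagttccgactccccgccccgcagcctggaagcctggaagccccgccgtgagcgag
VAV1, chr19:6801677-6801876, plus strand: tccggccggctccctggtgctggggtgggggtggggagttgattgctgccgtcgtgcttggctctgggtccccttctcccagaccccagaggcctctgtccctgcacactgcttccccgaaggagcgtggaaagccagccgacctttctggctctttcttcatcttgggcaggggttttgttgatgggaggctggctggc
PLCG1, chr20:41142365-41142564, plus strand: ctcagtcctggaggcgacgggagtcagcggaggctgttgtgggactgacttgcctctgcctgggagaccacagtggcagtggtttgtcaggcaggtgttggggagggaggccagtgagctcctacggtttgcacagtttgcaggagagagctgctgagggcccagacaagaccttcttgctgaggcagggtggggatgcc

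Among these windows TGTA stood on the host strand 3 times in TAF4 and 1 time in PRRC2B. It was in none of the host strands of the PTPRN2, BRSK2, EPS15L1, ZBED4, VAV1 and PLCG1 windows. The GC content of the 8 windows ran from 60% in BRSK2 to 64% in VAV1. The ZBED4 window held 14 CpG and the PRRC2B window 2.

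First introns took 6.08% of the main-chromosome peaks of replicate 1 and 5.72% of those of replicate 2 before the sharing step. Of these peaks, 50.3% (95% Wilson interval 49.0 to 51.6) were shared in the longer list of replicate 1 and 79.7% (78.4 to 80.9) in replicate 2, a mean of 65% ± 20.8 (SD, n = 2). Intervals cover counting error only. In later introns (intron 2 onward of a canonical transcript, chosen by the same rule) the shares were 46.6% and 78.0%. First introns were therefore 3.73 percentage points higher in replicate 1 and 1.68 points higher in replicate 2. That was 2.71 points ± 1.45 (SD, n = 2), and it depended on how edges were treated. When only the summit had to avoid exons, it was 0.248 points in replicate 1 and -0.663 points in replicate 2.

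Enrichment was modest in most first-intron peaks. The fold enrichment, given by the peak caller as the pileup of fragments at the summit plus 1 over the background plus 1, had a median of 4.16 in replicate 1 and 4.21 in replicate 2. Later-intron peaks had medians of 4.07 and 4.12, so the ratio of medians was 1.02 in both replicates. Promoter peaks shared between the lists had higher medians, 4.73 and 4.49. First-intron peaks found in 1 list alone had lower medians, 3.57 and 3.71. Behind the median shared first-intron peak stood 30 fragments at the summit in replicate 1 and 19 in replicate 2, over background levels of 6.0 and 3.45, as recovered from the deposited fold and p-value. In replicate 1 the pileup that enters the fold was the number of fragments times 0.921, and in replicate 2 it was not scaled. Peaks were 703 bp and 627 bp long at the median. A fold of at least 10 was reached by 32 peaks in replicate 1 and by 17 in replicate 2, and by 9 regions in both. Of shared first-intron peaks with a gap to the nearest start of 2 to 3 kb, just outside the rule, there were 484 and 526 with median folds of 4.43 and 4.32. Just inside, at 3 to 4 kb, there were 400 and 450 with median folds of 4.09 and 4.21.

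**Figure D1:**
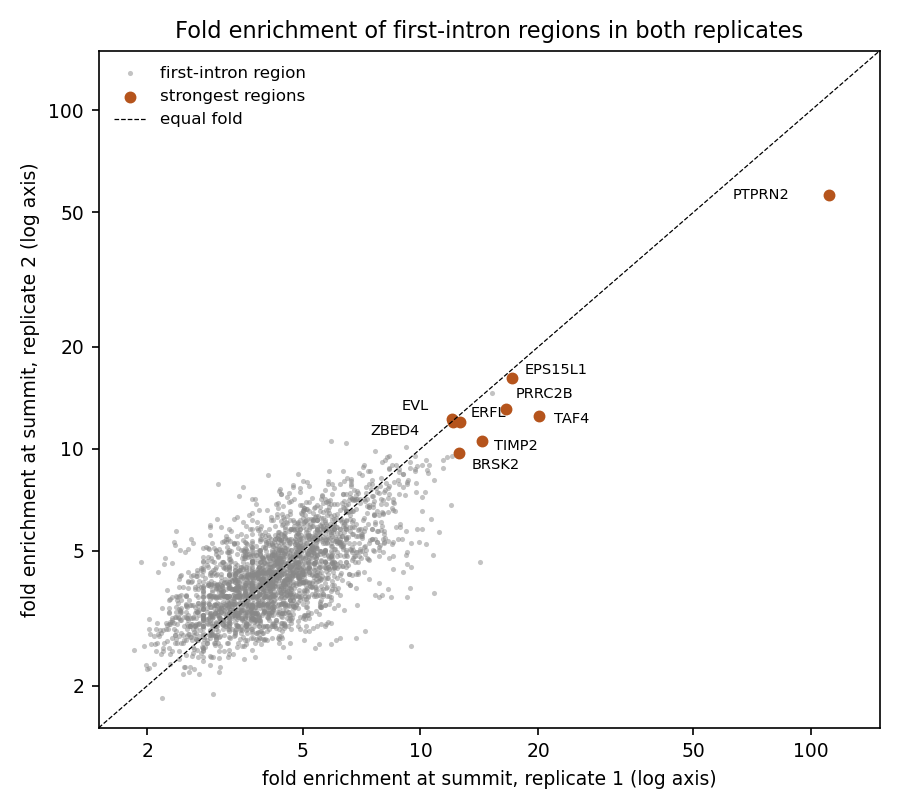
Fold enrichment at the summit in replicate 1 (horizontal, log axis) against replicate 2 (vertical, log axis) for the 2639 first-intron regions, each a point, with 9 of the 10 strongest regions in orange and a dashed line at equal fold. Most regions lie in a cloud around a fold of 4 in both replicates, and PTPRN2 stands far apart at 110.9 and 56.4.

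Over the 2639 regions the folds of both replicates had a Spearman's rho of 0.632, given as a description since regions are not independent and both lists may rest on like background. The summits of both replicates were 103 bp apart at the median, and in 65.9% of regions they lay within 200 bp. Regions were 871 bp long at the median and the longest was 11707 bp.

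The strongest regions are described next, as their windows are shown above. The highest fold was in PTPRN2, which encodes a receptor-type tyrosine phosphatase-like protein of secretory granules. Its region at chr7:158523121-158526416 had a fold of 110.9 in replicate 1 and 56.4 in replicate 2, while the median over the 6 regions of that intron was 3.39 and 3.45. Within the region 32.8% of all 20-base words occurred more than once. In TAF4, a subunit of the general transcription factor TFIID, the fold was 20.1 and 12.5, and 64.2% of words were repeated. BRSK2, a brain-enriched kinase, had folds of 12.5 and 9.74 with 67.0% of words repeated. Background levels were also high in BRSK2, 19 and 9.47. Reads from repeated sequence can map to several copies, and the part of this in these folds was not tested.

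Other strong regions held few or no repeated words. EPS15L1, an adaptor of clathrin-mediated endocytosis, had a fold of 17.2 in replicate 1 and 16.2 in replicate 2, from 94 and 53 fragments. For PRRC2B, an RNA-binding protein, the folds were 16.5 and 13.1. ERFL, an ETS-family gene, had 12.6 and 12.0. EVL, an actin regulator of the Ena/VASP family, had 12.0 and 12.3, and TIMP2, an inhibitor of matrix metalloproteinases, had 14.3 and 10.5. ZBED4, a zinc finger protein, had 12.1 and 12.0. Repeated words made up 0.513% of the EPS15L1 region, 0.0619% of the ERFL region, 5.60% of the TIMP2 region and 0% of the PRRC2B, EVL and ZBED4 regions. In both replicates each of these regions ranked in the top 2% of its list, with the lowest percentile, 98.5, in TIMP2 of replicate 2.

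Distances from the start covered a wide range. The median distance from the canonical start to the summit was 15752 bp in replicate 1 (quartiles 8258 and 31578) and 15096 bp in replicate 2 (7961 and 30676), 15424 bp ± 464 (SD, n = 2). Within 10 kb of the start were 32.5% and 33.8% of the peaks, and within 20 kb 59.8% and 61.1%. Beyond 100 kb were 2.33% and 2.17%. Other transcripts often start closer, since the median gap to any annotated start was 7875 bp and 7762 bp. The nearest start of any transcript belonged to the host gene for 76.3% and 76.1% of peaks, to a noncoding gene for 20.9% and 20.8%, and to another protein-coding gene for 2.86% and 3.03%.

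Along the intron itself the peaks were spread widely. Each intron was cut into 5 equal parts. From its 5′ to its 3′ end, the density in replicate 1 was 11.5, 14.9, 15.8, 16.3 and 13.8 peaks per Mb of eligible sequence, and in replicate 2 it was 12.3, 16.2, 17.3, 16.9 and 14.9. The part next to the first exon was the lowest in both replicates. It held 14.6% of the eligible 200 bp windows, against 19.9% to 22.2% in each of the other parts. How far the 3 kb rule and the mix of intron lengths set its density was not tested. Eligible sequence means intron bases that lie more than 3 kb from any start and outside all exons, 194.3 Mb for first introns and 621.6 Mb for later introns.

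Peaks far from the canonical start were few, with 6 beyond 200 kb in each replicate. Their median fold was 3.58 in replicate 1, below the median of all first-intron peaks, and 4.66 in replicate 2, above it. KAZN, which encodes a cell junction-associated protein, held the outermost region at 358652 bp in replicate 1 and 359026 bp in replicate 2, with folds of 3.36 and 2.83. A second KAZN region lay 341076 bp from the start with folds of 3.64 and 3.95. NTM, a neuronal cell adhesion gene, had a region 253610 bp from the start with folds of 2.47 and 2.83. SH3RF3 had one at 215372 bp with 4.34 and 5.67, and PLCL1, a phospholipase C-like protein, one at 213535 bp with 3.52 and 5.36. These distances run from the canonical start, and other annotated starts lay closer. The gap to the nearest start of any transcript was 11181 bp for the outermost KAZN region and 5911 bp for the second. It was 39267 bp for NTM, 30728 bp for SH3RF3 and 131015 bp for PLCL1. NTM and PLCL1 were among the 32 host genes with no promoter peak in either list.

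Density was highest at 5 to 10 kb from the start and fell beyond that. For first introns it was 19.9 peaks per Mb in replicate 1 and 23.5 in replicate 2 at 3 to 5 kb, and it was highest at 5 to 10 kb, 26.6 and 29.1. It was 22.3 and 23.9 at 10 to 20 kb, 15.4 and 15.9 at 20 to 50 kb, and 7.99 and 8.33 at 50 to 100 kb. At 100 to 200 kb it was 2.90 in both replicates, and beyond 200 kb 0.422 in both. The fall from 5 to 10 kb onward was larger than the spread between replicates. A peak had to clear 3 kb with its nearest edge, while eligible sequence was counted base by base. The part of this in the lower density at 3 to 5 kb was not tested. The median GC content of the summit windows lay between 57% and 59.5% in all bins. These windows describe called peaks, which lay in GC-rich sequence, and not the eligible sequence of each bin. They therefore cannot show whether the GC content of the eligible sequence moved with distance. The part of GC content in the fall was not tested. Intron length moved with distance. In introns of up to 20 kb the density was 27.7 and 31.8, and in introns over 200 kb it was 0.665 and 0.693.

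Compared with later introns, first introns held 14.6 against 9.34 peaks per Mb in replicate 1 and 15.6 against 10.4 in replicate 2, a ratio of 1.56 and 1.51. That ratio did not stand by itself. Given the rates of later introns at like GC content, it was 1.42 and 1.36. At like distance it was 1.01 and 0.962, and at like GC content and distance 1.18 and 1.11. Later introns with a peak were shorter, 9371 bp and 8732 bp at the median against 25133 bp and 24302 bp, and more of their peaks reached an exon. With only the summit kept out of exons, later introns held 7960 and 8636 shared peaks in place of 5805 and 6439, and first introns 2976 and 3187 in place of 2833 and 3037. The plain ratio was then 1.2 and 1.18, and the ratio at like GC content and distance was 0.831 and 0.799, below 1 in both replicates. Whether first introns are richer than later introns in these peaks thus depends on the rule for edges and on whether distance and GC content are held alike. Far from the start the order was the same under both rules. Beyond 200 kb first introns held 0.133 and 0.120 times the density of later introns, and 0.117 and 0.108 times with edges free.

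**Figure D2:**
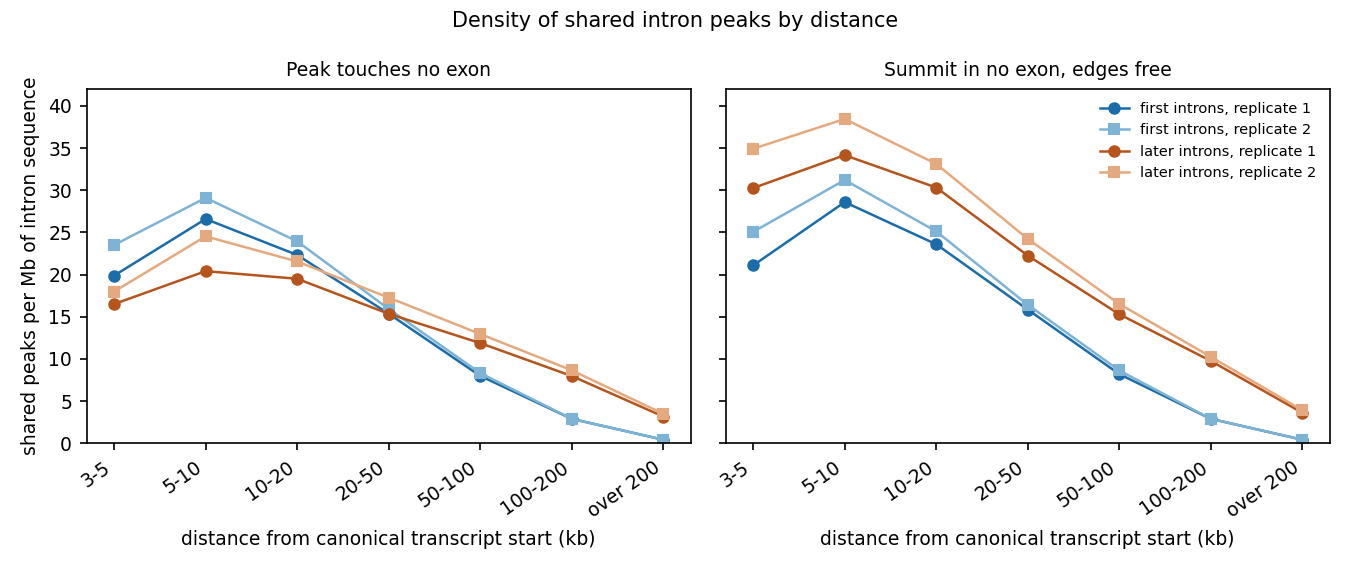
Shared peaks per Mb of eligible intron sequence (vertical) by distance from the canonical start in kb (horizontal), for first introns (blue) and later introns (orange) in replicate 1 (dark circles) and replicate 2 (light squares). In the left panel a peak may touch no exon, and the lines of replicate 2 cross between the bins of 10 to 20 and 20 to 50 kb. Those of replicate 1 are almost equal at 20 to 50 kb (15.36 and 15.35) and cross beyond that bin. In the right panel only the summit must lie outside exons and later introns are higher in every bin.

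First-intron peaks occurred in groups. Another shared first-intron peak lay within 10 kb in the same intron for 69.7% of them in replicate 1 (95% Wilson interval 68.0 to 71.4) and 71.0% in replicate 2 (69.4 to 72.6), 70.4% ± 0.878 (SD, n = 2). Within 5 kb the shares were 59.3% and 61.0%. Where a neighbour existed, the nearest was 2580 bp and 2446 bp away at the median. In later introns 52.0% and 53.6% had a neighbour within 10 kb, which was lower in both replicates by more than the spread between them. Later introns with a peak were shorter, as given above, and the part of length in that difference was not tested. Of the 1137 first introns with a peak in replicate 1, 538 held at least 2 and 156 held at least 5, and those with at least 5 took 43.4% of all peaks. In replicate 2 the numbers were 1189, 570 and 172, with 45.5%.

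By merged regions, 515 of the 1133 host genes had at least 2, 145 had at least 5 and 27 had at least 10. The 145 genes held 1089 of the 2639 regions, 41.3%. Most regions were in CMIP, the c-Maf inducing protein, and RTN4RL1, a Nogo receptor homologue, with 17 each. The folds of CMIP lay between 2.57 and 5.02 in replicate 1 and between 2.99 and 6.10 in replicate 2, with summits 12928 to 156407 bp from the start. Those of RTN4RL1 lay between 3.23 and 9.66 and between 3.67 and 8.72. GALNT2, a Golgi enzyme that starts O-glycans, and RXRA, a nuclear receptor that pairs with other nuclear receptors, had 15 each. The other six of the 10 host genes had 13 each. BCR is the fusion partner of ABL1 in the Philadelphia chromosome, CRTC1 is a CREB coactivator, and INPP4A is a phosphoinositide phosphatase. RPTOR is the raptor subunit of mTORC1, SKI is a repressor of TGF-beta signalling, and CCDC85C is a coiled-coil protein. Their median folds lay between 3.23 and 5.23 in replicate 1 and between 3.64 and 4.58 in replicate 2. All 10 genes had a promoter peak in both lists.

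**Figure D3:**
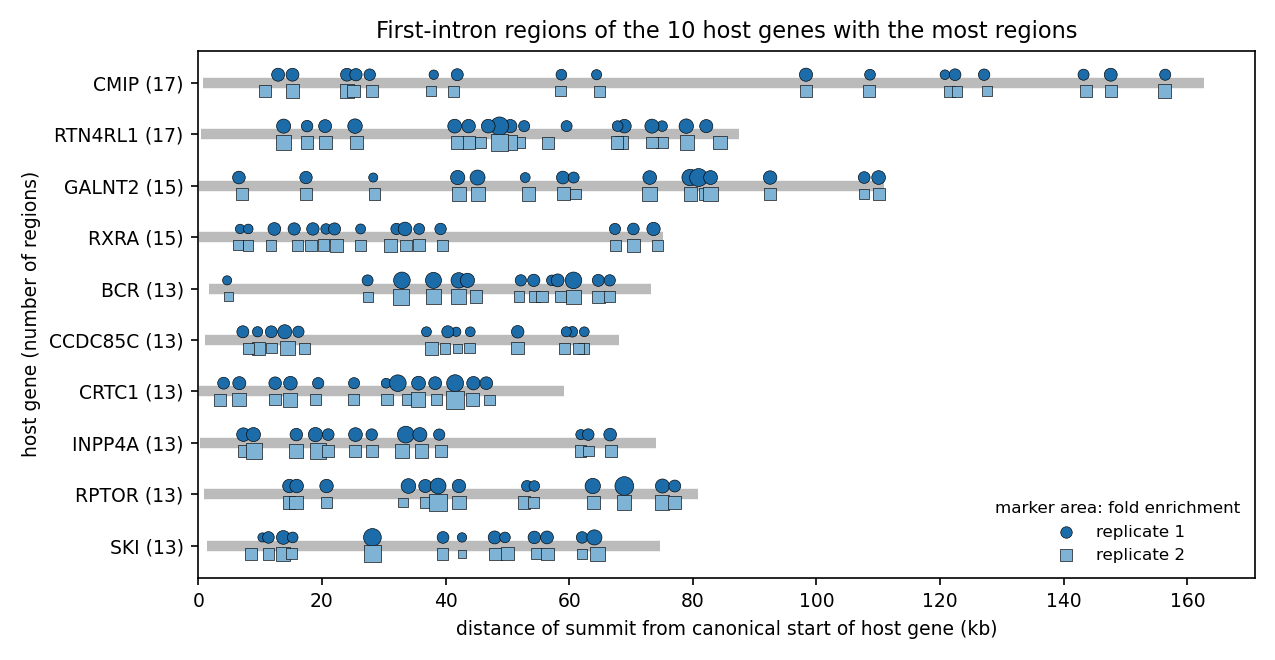
Position of first-intron regions in the 10 host genes with the most regions, by distance of the summit from the canonical start in kb. Grey bars are intron 1, circles replicate 1 and squares replicate 2, with marker area in proportion to fold enrichment. The summits of both replicates lie close to each other in most regions, and regions extend over most of each intron.

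The hosts were set against all genes that could have had a region. Of 8689 protein-coding genes with eligible first-intron sequence, 1133 had a region in both lists, 13.0%. Hosts had longer first introns, with a median of 25323 bp against 14473 bp, although the number of regions followed eligible length only loosely (Spearman's rho 0.219 over 8689 genes, a description). A promoter peak in both lists, meaning a peak of each within 3 kb of one of the gene's own starts, was present in 1009 of the 1133 hosts, 89.1% (95% Wilson interval 87.1 to 90.7). Among all 8689 genes it was present in 52.3% and among genes without a region in 46.8%. Counted by the hosts of each list the share was 89.2% and 89.7%.

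By sequence the contrast was wider. Genes with a promoter peak in both lists held 39.4 first-intron peaks per Mb in replicate 1 and 42.4 in replicate 2. Genes with a promoter peak in 1 list held 3.47 and 3.55, and genes with none held 0.473 in both. The first group took 93.8% and 94.1% of all first-intron peaks. Its 4544 genes had 67.5 Mb of eligible sequence, while the 2658 genes with no promoter peak had 86.7 Mb and thus more per gene. Density was lower in long introns, as given above, and the part of intron length in this contrast was not tested. Introns of genes whose coding sequence begins after intron 1 held 16.5 and 17.5 per Mb, and those of genes whose coding sequence begins upstream of it 13.9 and 15. Genes with a coding start after intron 1 were 37.1% of hosts and 36.7% of all genes, a share near the background.

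The peaks lay in GC-rich sequence. Around first-intron summits the 200 bp windows held 59% GC at the median in replicate 1, and 58% in replicate 2. Over all eligible first-intron windows it was 40%, and later-intron summits had 59% and 58%. A GC content of at least 55% was found in 79.8% and 76.6% of the summit windows and in 6.80% of all windows. Within classes of like GC content the promoter contrast remained. At 55 to 60% GC, genes with promoter peaks in both lists held 192 and 204 first-intron peaks per Mb, and the other genes 11.5 and 9.54. At 60 to 65% the values were 394 and 403 against 21.7 and 32.5. Below 45% GC almost no peak was found in either kind of gene, with 1 in replicate 1, and in replicate 2 with 2 below 40% and 5 from 40 to 45%.

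**Figure D4:**
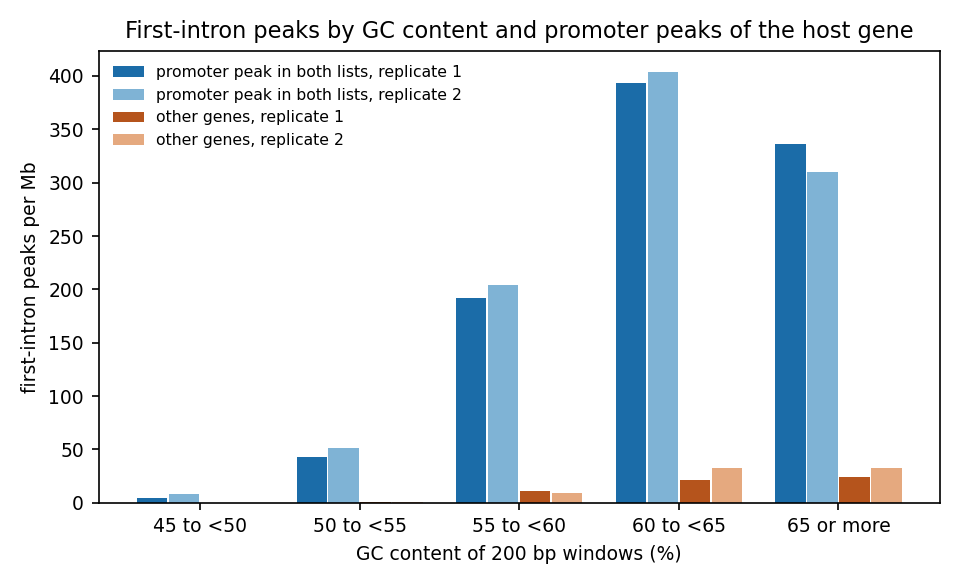
First-intron peaks per Mb (vertical) by GC content of 200 bp windows in % (horizontal), for genes with a promoter peak in both lists (blue) and all other genes (orange) in replicate 1 (dark) and replicate 2 (light). In every GC class from 50% upward the blue bars of both replicates stand above the orange ones.

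Chromosomes differed widely. Chromosome 19 had the highest density, 100.8 and 110.5 first-intron peaks per Mb, followed by chromosome 17 with 59.9 and 62.2 and chromosome 22 with 59.0 and 59.7. Chromosome X had 2.2 and 2.32. The mean GC content of the eligible sequence was 47.8% on chromosome 19 and 39.8% on chromosome X. Chromosomes 18 and 21 had like GC content, 40.4% and 40.3%, but 2.79 and 18.2 peaks per Mb in replicate 1. The part of GC content in the differences between chromosomes was not tested. Chromosome 19 held 12.5% and 12.7% of all first-intron peaks.

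Short sequence words were counted on either strand in the summit windows and in all 963782 eligible first-intron windows of equal length. TGTA was found in 54.7% of summit windows in both replicates and in 81.7% of all windows. AT-rich words are rare in GC-rich sequence, so all windows were also weighted to the GC content of the summit windows, which gave 51.7% for replicate 1 and 53.5% for replicate 2. The polyadenylation signal AATAAA stood in 4.48% and 4.87% of summit windows, against 3.68% and 4.13% at like GC content and 31.8% of all windows. The RUNX word TGTGGT stood in 16.3% and 17.6%, against 14.9% and 15.2% at like GC content and 14.0% of all windows. The E-box CACGTG was in 5.33% and 6.16%, against 4.29% and 4.22% at like GC content and 1.82% of all windows. These 4 words were above the value at like GC content in both replicates, by at most 2.98 percentage points. Later-intron summits had TGTA in 52.9% and 52.3%, AATAAA in 3.55% and 3.84%, TGTGGT in 16.7% and 17.1%, and CACGTG in 5.53% and 5.25%. For TGTGGT and CACGTG they were higher than first-intron summits in replicate 1 and lower in replicate 2. CACGTG holds a CpG, and the weighting did not match CpG content.

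The other words searched were AGATAA for GATA factors, CCGGAAG for ETS factors, AACTG for MYB, TGANTCA for AP-1 and GGNGGCAG for the CTCF core. Their shares in replicate 1 and replicate 2 differed from those at like GC content by between -1.80 and 1.36 percentage points. AACTG lay above in both, by 0.0222 and 1.36 points, and so did TGANTCA, by 0.0211 and 0.583 points. AGATAA lay below in both, at -0.290 and -0.00187 points. CCGGAAG lay above in replicate 1 and below in replicate 2. The CTCF core was also below in both replicates, with 16.8% and 15.8% against 17.9% and 17.6%, and it was in 5.90% of all windows. In all windows AGATAA was in 14.3%, CCGGAAG in 0.431%, AACTG in 36.7% and TGANTCA in 6.19%. None of the words contains another. A word match is a description and marks no binding site.

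NUDT21 binds RNA, which carries the sequence of 1 strand, so TGTA and AATAAA were also read by strand in peaks with 1 host gene. On the host strand TGTA was in 38.9% of windows in replicate 1 (95% Wilson interval 37.1 to 40.7) and 38.8% in replicate 2 (37.1 to 40.6). On the other strand it was in 33.8% (32.1 to 35.6) and 33.6% (31.9 to 35.3). First-intron sequence has a strand difference of its own. In all windows the shares were 62.7% on the host strand and 56.9% on the other, and weighted to like GC content they were 36.0% against 32.8% for replicate 1 and 37.4% against 34.3% for replicate 2. The excess of the host strand was thus 5.08 and 5.23 points in summit windows and 3.15 and 3.13 points at like GC content. Later-intron summits had 36.4% against 32.9% and 37.2% against 31.2%. For AATAAA the order was opposite, 1.91% and 2.08% on the host strand and 2.59% and 2.75% on the other, and all windows showed the same order with 14.6% and 20.5%.

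Genes of the T lineage were then examined by list, beside the 13.0% over all genes. Of 40 transcription factors of the T lineage or of T-ALL, 18 had eligible sequence and 8 had a region (44.4%, 95% Wilson interval 24.6 to 66.3). Their first introns were long, 34518 bp at the median, and per Mb the list held 14.6 regions against 13.6 over all genes, near the background. Among its genes with a promoter peak in both lists, 8 of 14 had a region, against 1009 of 4544 over all genes (22.2%). FLI1, an ETS factor of blood and vessel cells, had 3 regions, with highest folds of 4.50 and 3.96. ETV6, an ETS repressor often altered in leukemia, had 1 region 80906 bp from the start, with folds of 6.47 and 5.79. Single regions lay in LMO1 (3.21 and 2.95), an oncogene of T-ALL, and in NFATC1 (2.77 and 3.16), NFATC2 (4.47 and 4.82) and NFATC3 (4.82 and 5.63), calcium-regulated factors of T-cell activation. STAT5B, which acts below cytokine receptors, had 2.78 and 3.17, and ZEB1, a repressor, had 3.04 and 3.30 at 130012 bp from the start. RUNX1, GATA3, MYB, NUDT21 and UBE2D3 had promoter peaks in both lists, but the first introns of their canonical transcripts held no eligible sequence. That of MYB was the longest of them with 4366 bp.

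Of 40 genes of T-cell receptor signalling, 27 had eligible sequence and 10 had a region (37.0%, interval 21.5 to 55.8). Per Mb this list held 31.4 regions, against 13.6 over all genes. PLCG1, the phospholipase that J.gamma1 cells lack as a protein, held 6 regions within 19512 bp of its start. In order of distance from the start, PLCG1 had folds of 3.23, 7.04, 4.78, 4.54, 4.35 and 4.78 in replicate 1 and of 4.26, 5.61, 4.34, 5.4, 4.83 and 5.81 in replicate 2. All lay between 3 and 8, and the highest of replicate 1 was in the region whose window is shown above. VAV1, a guanine nucleotide exchange factor downstream of the receptor, held 4. Its strongest region had a fold of 10.5 from 90 fragments in replicate 1 and 8.98 from 53 fragments in replicate 2, and its weakest 2.43 and 3.27. DGKZ, a diacylglycerol kinase that dampens the signal, had 4 regions. CD6, a co-receptor, and PRKCQ, the protein kinase C theta of T cells, had 3 each. CD247, the zeta chain of the receptor complex, and the adaptor NCK2 had 2 each, and the adaptor GRB2 had 1. The kinase genes LCK and SYK, outside the named hosts, also had 1 each. Among the genes of this list with a promoter peak in both lists, 8 of 19 had a region, against 22.2% over all genes. NCK2 had no promoter peak in either list.

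Among 40 genes of RNA polymerase II elongation and chromatin, 25 had eligible sequence and 13 had a region (52.0%, interval 33.5 to 70.0). Per Mb this list held 104 regions, against 13.6 over all genes. ELL, an elongation factor, held 9 and SMARCA4, the BRG1 remodelling ATPase, held 6. The methyltransferase gene EHMT1 held 5, the acetyltransferase gene CREBBP 4, and DOT1L and ARID1A 3 each. These genes were singled out after their values were seen. Of the genes of this list with a promoter peak in both lists, 12 of 22 had a region, against 22.2% over all genes. Among 24 cleavage and polyadenylation factors, 13 had eligible sequence and 2 had a region (15.4%, interval 4.33 to 42.2), a share near the background. They were SSU72, a phosphatase of the polymerase tail, with 8.06 and 5.60, and WDR33, which binds the polyadenylation signal, with 3.96 and 3.70.

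Lists of other cell types served as a comparison. Of the B-cell genes 1 of 10 had a region, BLK (10%, interval 1.79 to 40.4), a share near the 13.0% over all genes. Of the myeloid genes 0 of 3 had one, which allows a share of up to 56.1% by the Wilson interval. With a promoter peak in both lists, 1 of 4 B-cell genes and 0 of 2 myeloid genes had a region, against 22.2% over all genes. Of the neuronal adhesion and synapse genes 2 of 32 had one (6.25%, interval 1.73 to 20.1), NTM and PTPRT. That list had 9.48 Mb of eligible sequence, a median first intron of 284965 bp and 0.211 regions per Mb, the lowest of the lists with a region. Only 1 of its 32 genes had a promoter peak in both lists. Intron length and promoter peaks both moved with the lists, and their part in the counts was not tested.

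**Figure D5:**
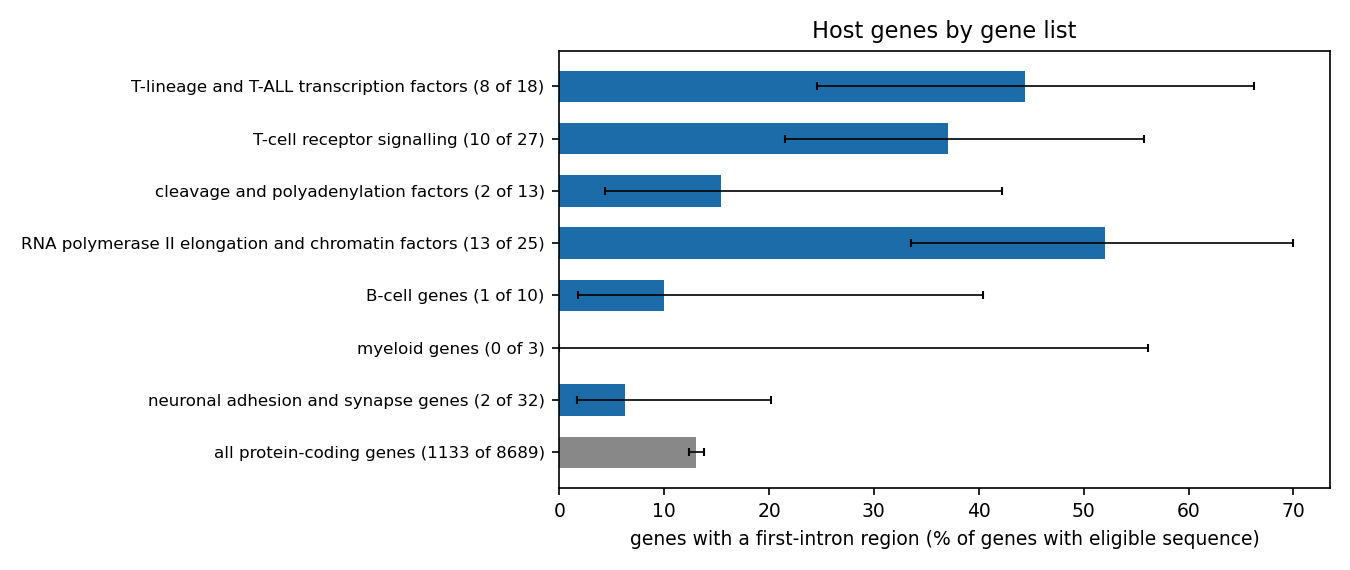
Share of genes with a first-intron region in both lists, in % of the genes with eligible first-intron sequence (horizontal), for 7 gene lists (blue) and all protein-coding genes (grey), with 95% Wilson intervals that cover counting error only. The intervals of the T-lineage factors, T-cell receptor signalling, and polymerase and chromatin lists lie above the 13.0% of all genes, and those of the other lists include it. This is a description and no test of the lists. They were chosen with earlier results of these data known, and they differ in first-intron length and in promoter peaks.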

How the data were processed

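NUDT21 CUT&Tag was measured in 2 replicates of J.gamma1. Following the methods of the study and its processing notes, the authors used fastp, aligned reads to hg38 with Bowtie2 2.2.5, and called peaks with MACS3 3.0.1 in each replicate separately. The deposited lists give the fold enrichment at each summit as a ratio over the background of the peak caller, −log10 p and −log10 q values, and a score derived from −log10 q, which was not used. Read totals were not used here and absolute depth is unknown. Fragments and background at the summit were recovered by solving the deposited fold and −log10 p for 99.98% and 99.99% of peaks, with a pileup scale of 0.921 in replicate 1. Such a scale arises when a library is compared with a control library of another depth, and the methods describe none. Many recovered background levels of replicate 1, though not all, were whole numbers. In BCR, for example, levels of 12, 4 and 7.00 in replicate 1 stood beside 6.68, 2.23 and 3.90 in replicate 2, and 8.48 beside 5.01. Whether the background is local signal or a control library, also 1 common to both replicates, was not tested. The summit of PTPRN2 was not recovered. Both lists reached down to a −log10 q of 2.00.

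Peaks were assigned with GENCODE release 44 in Python 3.11.15 (pandas 2.3.3, intervaltree 3.1.0, pysam 0.24.0). Of several host genes the one with the nearest canonical start was used for distances, which concerned 53 regions, and a region counted for each of its hosts. Windows were 200 bp of hg38. Densities were standardised by applying the rates of later introns in classes of GC content and distance to the eligible sequence of first introns. The assignment, sharing and recovery steps were tested on simulated data. Shares carry 95% Wilson intervals.

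Named hosts were the 10 with the most regions, the hosts of the 10 regions that ranked highest by fold summed over both lists and of the 5 farthest regions, up to 8 genes of each of 3 lists, and RUNX1, GATA3, MYB, ETV6, NUDT21 and UBE2D3. The results of 1 host are not reported here. Members, gene lists and words were chosen with earlier results of these data known. Alternatives were a stricter −log10 q, other rules of sharing, a larger distance from starts, starts of protein-coding genes, free peak edges, and each replicate alone. The share of soft-masked sequence was not run, as the genome sequence used here carries no masking.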

Additional observations from a re-analysis of the deposited data

Results flagged for a closer look

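Peaks on sequences other than chromosomes 1 to 22, X and Y were outside all comparisons. There were 4440 in replicate 1 and 1861 in replicate 2, and no control library was at hand to set them against.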

How the results depend on the processing

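Values are means of both replicates unless stated. The number of shared first-intron peaks was 2935 ± 144 (SD, n = 2). It was 1622 with −log10 q of at least 5, 1866 with summits within 200 bp and 1079 with starts more than 10 kb away, and 2833 to 3037 in single replicates. The shared share of 65% was 41.1% with summits within 200 bp and 50.3% to 79.7% in single replicates. First introns exceeded later introns in shared share by 2.71 points, by 0.992 at −log10 q of at least 5 and by 0.495 beyond 10 kb. With only summits kept out of exons the difference was -0.207, and single replicates gave 1.68 to 3.73. The ratio of median folds to later introns, 1.02, was 1.03 at −log10 q of at least 5, 1.01 with 50% reciprocal overlap, 1.02 with summits within 200 bp, 1.02 with starts of protein-coding genes, 1.01 with edges free, and 1.02 in each replicate.

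The median distance was 16074 bp with summits within 200 bp, 25229 bp beyond 10 kb and 15096 to 15752 bp in single replicates. The density ratio of 1.54 fell to 1.32 beyond 10 kb and 1.19 with edges free, with 1.51 to 1.56 in single replicates. At like GC content and distance it was 1.15, 1.11 to 1.18 in single replicates, and 0.815 with edges free, an alternative chosen after seeing the data. The share with a neighbour within 10 kb was 61.3% at −log10 q of at least 5, 59.2% with 50% reciprocal overlap, 57.8% with summits within 200 bp, 68.5% beyond 10 kb, 71.5% with starts of protein-coding genes, and 69.7% to 71.0% in single replicates. Stricter rules leave fewer peaks that could be neighbours. The share of hosts with a promoter peak in both lists was 87.8%, 90.1% and 86.2% at −log10 q of at least 5, with summits within 200 bp and beyond 10 kb, and 89.2% to 89.7% in single replicates.

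No paired analysis was possible because the study has 1 group of samples. No interval covers variation between cultures, unknown depth limits weak peaks, and the part of intron length in the effect of the exon rule was not tested.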
